A study of Mus musculus with 8 samples.

Results

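The genes described here are 9 feedback inhibitors of MAP kinase signalling, the phosphatases Dusp1, Dusp2, Dusp4, Dusp5, Dusp6 and Dusp10 and the Sprouty genes Spry1, Spry2 and Spry4, out of 18193 genes that had a probe set with a single symbol. They were read at every probe set of the array platform that carried 1 of these symbols and no other, which gave 14 probe sets. The genes had been picked with their differences between the groups known, so these differences are given as a description, with no test. Gene expression had been measured on Affymetrix arrays in 8 mouse retina samples, 1 array each. For the injected group, RNA came from 4 injected retinas, and the label adds no more than a compound-based treatment. For the control group, RNA came from 4 retinas taken fresh, with a time point of 0 d. Strain, genotype, age, compound, dose, route and interval are not given in the labels, and no sham-injected group was compared, so injection, compound and handling cannot be told apart. The labels do not say how many animals gave these retinas, and the errors below may therefore be technical in part.

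MAP kinases carry signals from growth factor receptors and stress sensors to the nucleus by a chain of phosphorylations that ends in ERK, JNK or p38. Dual-specificity phosphatases of the MAP kinase phosphatase family remove both activating phosphates from these kinases, and several of their genes are themselves switched on by the pathway, as immediate early or delayed early genes. Sprouty proteins act further upstream, where they restrain signalling from receptor tyrosine kinases through Ras to ERK, and are also induced by it. In the retina these routes serve responses to growth factors, light, injury and stress.

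Promoter sequence was available from RefSeq (GRCm38.p6) for 7 of the 9 genes, and 3 are shown, Dusp1 and Dusp5 for the response elements they carry and Dusp6 as one with no match. Each is the 250 bases before the annotated start, 5′ to 3′ on the gene's own strand. Capitals mark matches on either strand to the cyclic AMP response element (TGACGTCA), its short form (TGACG) or the CArG box that serum response factor binds.
Dusp1 (chr17:26508473-26508722, minus strand): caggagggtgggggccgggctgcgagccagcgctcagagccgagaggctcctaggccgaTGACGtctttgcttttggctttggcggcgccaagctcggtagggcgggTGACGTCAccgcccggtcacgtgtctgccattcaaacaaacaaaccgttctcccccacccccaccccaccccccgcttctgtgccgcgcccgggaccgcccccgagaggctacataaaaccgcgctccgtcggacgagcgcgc
Dusp5 (chr19:53528895-53529144, plus strand): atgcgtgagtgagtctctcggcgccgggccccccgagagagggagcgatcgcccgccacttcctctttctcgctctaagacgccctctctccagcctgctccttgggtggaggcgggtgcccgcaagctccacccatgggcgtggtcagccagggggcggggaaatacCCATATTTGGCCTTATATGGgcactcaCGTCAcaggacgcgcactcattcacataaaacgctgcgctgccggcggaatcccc
Dusp6 (chr10:99262981-99263230, plus strand): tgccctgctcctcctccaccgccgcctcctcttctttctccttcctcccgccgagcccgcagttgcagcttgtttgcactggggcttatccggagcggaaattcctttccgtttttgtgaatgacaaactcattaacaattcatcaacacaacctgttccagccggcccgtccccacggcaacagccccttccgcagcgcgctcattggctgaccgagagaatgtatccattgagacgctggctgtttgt

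The Dusp1 window held the full cyclic AMP response element from -143 to -136 and a separate short form from -191 to -187, counted back from the start. The full element was the only one among the 7 windows, and 1.55% of all 32851 promoters of that length in the table had it. The short form, which is also contained in the full element, was in 2 of the 7 windows (Dusp1 and Dusp5) and in 17.8% of all promoters. The Dusp5 window held a pair of adjacent CArG boxes, from -82 to -73 and from -72 to -63, a motif in 1.47% of all promoters, and a short form from -55 to -51. The Dusp6 window had none of the searched motifs. The Dusp2 window had an EGR site (GCGGGGGCG, with GCGTGGGCG also searched) from -98 to -90, which 3.06% of all promoters had. The GC box (GGGCGG) was in 5 of 7 windows against 32.7% of all promoters, and in Dusp2 1 GC box overlapped the EGR site. The GC content of the 7 windows ran from 56.4% to 70.4%, above the median of 52.4% for all promoters. The ETS site (CCGGAAGT) was in 0 of the 7 windows and 2.88% of all promoters, and the TATA box (TATAAA) in 0 and 12.4%. These matches describe the letters in these windows only.

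Intensities are given below after quantile normalisation, which gives all arrays the same distribution, and differences are on the scale of log2(intensity + 16), injected minus control. Of the 9 genes, 2 had all 4 injected arrays below all 4 control arrays (Dusp1 and Dusp4) and 0 had all above. Among all 12886 genes tested, 2.65% lay wholly below and 2.85% wholly above. The median difference of the 9 genes was -0.31, against -0.01 over all genes tested. The genes were picked on these same values, so nothing follows from the count or the median. The filter on low signal, a mean log2 value of 8.5 over the 8 arrays (an intensity of about 345), was passed by 9 of the 14 probe sets and by 8 of the 9 genes at their brightest probe set. Dusp5 did not pass.

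**Figure D1:**
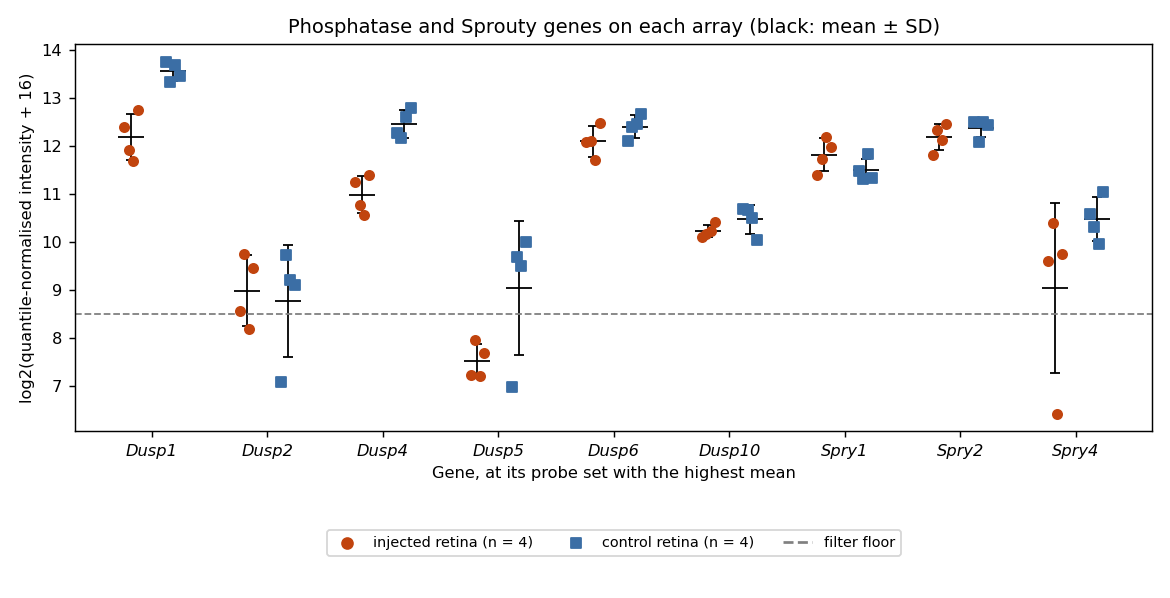
Each point is 1 array at the gene's probe set with the highest mean, on the y axis as log2(quantile-normalised intensity + 16), with injected retina (circles) left of control retina (squares), n = 4 each; black bars are the mean ± SD and the dashed line is the filter floor at 8.5. Dusp1 and Dusp4 are the genes whose groups do not overlap, and in Dusp5 1 control array lies below every injected array.

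Dusp1 encodes a nuclear phosphatase of p38, JNK and ERK and is a classical immediate early gene. Its intensity was 5370, 3859, 3295 and 6867 in injected replicates 1 to 4, against 13880, 10400, 13240 and 11200 in control replicates 1 to 4. Every injected value was below every control value, and the injected arrays differed more among themselves than the control arrays. The log2 value averaged 12.19 ± 0.47 in injected and 13.56 ± 0.20 in control retina (SD, n = 4 each), and the difference was -1.37 ± 0.26 (SE from the limma fit).

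Dusp4 encodes a nuclear phosphatase of the same subgroup that acts on ERK and JNK. Its intensity was 2412, 1725, 1484 and 2663 in injected replicates 1 to 4, against 4910, 4587, 6244 and 7086 in control replicates 1 to 4. The groups were again apart, and the order of the injected arrays was that of Dusp1, with replicate 4 highest, then 1, 2 and 3. The log2 value averaged 10.99 ± 0.39 in injected and 12.46 ± 0.29 in control retina (SD, n = 4 each), and the difference was -1.47 ± 0.25 (SE). With 1 array left out, the difference lay between -1.57 and -1.21 for Dusp1 and between -1.62 and -1.35 for Dusp4.

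Dusp5 encodes a nuclear phosphatase selective for ERK. All injected arrays were dim, at 133.1, 230.9, 132 and 189.4, against 109.4, 807.7, 707.1 and 1004 in control replicates 1 to 4. Control replicate 1 was thus below all injected arrays while the other 3 controls were above them. The log2 value averaged 7.51 ± 0.36 in injected and 9.04 ± 1.39 in control retina (SD, n = 4 each), a difference of -1.52. The injected mean was below the filter floor, where the size of a difference is uncertain. Without control replicate 1 the difference was -2.21 and the groups did not overlap.

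Dusp6, a cytoplasmic phosphatase selective for ERK whose gene is widely used as a readout of growth factor signalling through ERK, differed less. Its intensity was 4316, 4378, 3340 and 5733 in injected replicates 1 to 4, against 4370, 5383, 5590 and 6497 in control replicates 1 to 4. The groups overlapped, with 1 injected array above 3 of the controls. The difference was -0.31 ± 0.22 (SE), or 12.1 ± 0.32 in injected and 12.41 ± 0.24 in control retina on the log2 scale (SD, n = 4 each).

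Dusp10 encodes a phosphatase of p38 and JNK. Its brighter probe set read 1086, 1126, 1191 and 1348 in injected replicates 1 to 4, against 1638, 1602, 1426 and 1033 in control replicates 1 to 4. Of the controls 3 were above all injected arrays and 1 was below them, and the difference was -0.24 ± 0.20 (SE). Without control replicate 4 it was -0.38 and the groups were apart. A second, dim probe set ran the other way, at 0.61, with 556.9 in injected replicate 3 against 72.57 to 91.06 in the other injected arrays and 23.34 to 200.6 in control arrays. Without injected replicate 3 that probe set was at -0.03.

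Dusp2 encodes a nuclear phosphatase of ERK and p38 that was first found in activated lymphocytes. Its signal was near the floor and scattered in both groups, at 359.4, 838, 272.8 and 687 in injected replicates 1 to 4, against 118.5, 830.7, 571.2 and 532.4 in control replicates 1 to 4. The groups overlapped fully and the difference was 0.21 ± 0.57 (SE). Leaving out control replicate 1 (-0.36) or injected replicate 2 (-0.04) made it negative. Of 15 microglia and leukocyte markers 13 were read and 10 passed the filter. Of these 10, 9 had a positive difference and 0 passed limma's adjusted p of 0.05, as did 0.00% of all probe sets. In 5 of the 10 all injected arrays lay above all controls, against 2.85% of all genes tested. The list mean was 0.43 to 1.26 in injected arrays and -0.29 to 0.42 in control arrays around the control mean, with injected replicate 2 (0.426) barely above control replicate 2 (0.423). The summed intensity of the 13, to which the brightest genes Csf1r and C1qb add most weight, ran from 65120 to 164400 in injected and from 30990 to 54560 in control retina. None of the 13 was listed at 0, and 3 were below the floor in both groups. Their part in the Dusp2 signal was not tested.

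**Figure D2:**
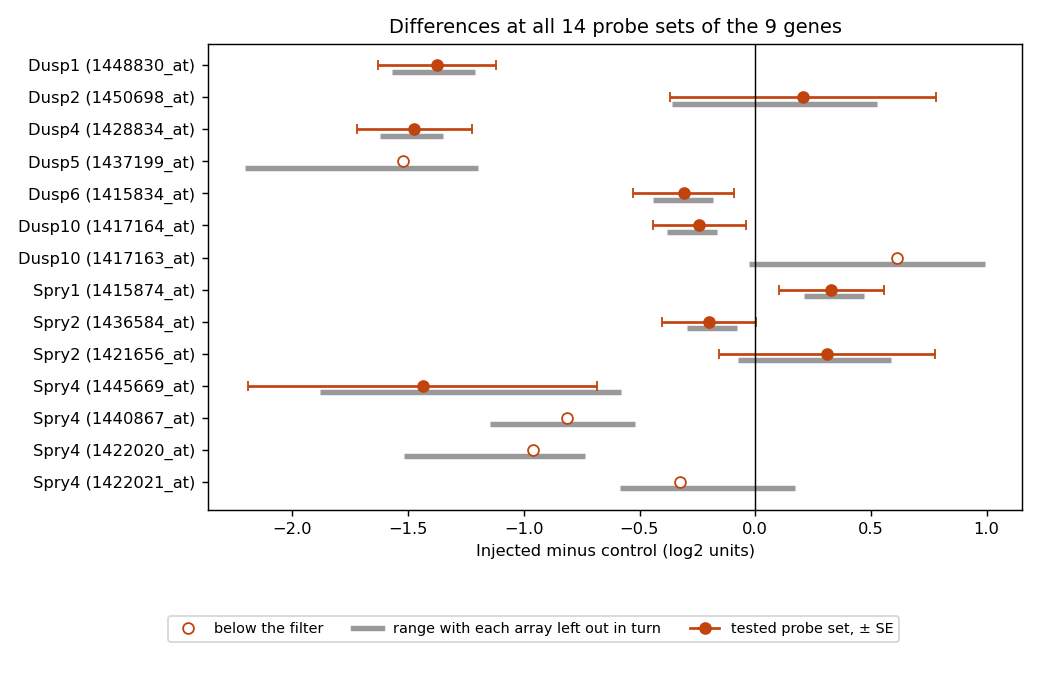
The x axis is the difference injected minus control in log2 units at each of the 14 probe sets, with bars of ± SE for the 9 that passed the filter and open circles for the 5 that did not; grey bars give the range when each array is left out in turn. The bars of Dusp1 and Dusp4 stay below -1, and the 2 probe sets of Dusp10 and of Spry2 lie on opposite sides of 0.

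At their brightest probe sets the 3 Sprouty genes had differences of both signs, each with groups that overlapped. Spry1 read 2662, 3381, 4643 and 4011 in injected replicates 1 to 4, against 2851, 2524, 3651 and 2559 in control replicates 1 to 4. Its groups overlapped and its difference was positive, at 0.33 ± 0.23 (SE). Centring the arrays on their medians gave 0.11.

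Spry2 was nearly level at its brighter probe set, with 3606, 5114, 4458 and 5582 in injected replicates 1 to 4, against 5781, 4332, 5765 and 5521 in control replicates 1 to 4. The difference was -0.20 ± 0.20 (SE), with overlap. At the dimmer probe set it was 0.31 ± 0.47 (SE), with 292.8, 505.7, 1193 and 455.3 in injected against 222.9, 538.2, 756.4 and 364.6 in control retina. The mean of both probe sets differed by 0.06, so no direction can be given for Spry2.

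Spry4 had the most uneven values. At its brightest probe set the intensity was 757.3, 1332, 69.64 and 844.7 in injected replicates 1 to 4, against 1527, 1250, 980.1 and 2102 in control replicates 1 to 4. Injected replicate 3 was far below the other 7 arrays, and injected replicate 2 was inside the control range. The difference was -1.44 ± 0.75 (SE) and shrank to -0.58 without injected replicate 3, the array that also had the lowest array weight (0.191) and the lowest mean correlation with its group (0.874). Without injected replicate 2 the groups were apart, at -1.88. The other 3 probe sets of Spry4 were below the filter and differed by -0.81, -0.96 and -0.33, all with overlap, and the last turned positive (0.17) without control replicate 2.

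Markers of several cell types and a measure of RNA quality also differed in mean between the groups. Photoreceptor markers are given first. Of 14 rod and cone markers 12 were read, 0 of them listed at 0, and 11 passed the filter. Of these 11, 10 had a negative difference and 5 lay wholly lower in injected retina, against 2.65% of all genes tested. The summed intensity of the 12 ran from 155400 to 282500 in injected and from 260500 to 282900 in control retina. The mean deviation of the 11 from the control mean was -0.53, -0.91, -1.15 and -0.08 in injected replicates 1 to 4 and within -0.06 to 0.08 in control arrays. Injected replicate 4 had the highest and replicate 3 the lowest value both here and for Dusp1 and Dusp4. The value near 0 on injected replicate 4 is a mean of markers on both sides, with 5 of the 11 below all controls there and 5 above; the cone opsin gene Opn1mw, for one, read 2391 on it against at least 3499 in control arrays. The ganglion, amacrine, horizontal and bipolar cell markers were read at 15 of 18 genes, all past the filter and 0 listed at 0. Of these 15, 14 had a negative difference and 4 lay wholly lower in injected retina, against the same 2.65%. Their summed intensity ran from 220700 to 287400 in injected and from 300000 to 323600 in control retina, with no overlap, and the list mean was -0.46, -0.54, -0.35 and -0.28 in injected replicates 1 to 4. In such bulk samples fewer cells of a type and less RNA per cell cannot be told apart.

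Of 2 measures of RNA quality, 1 had groups that did not overlap. The Gapdh control probe sets at the 3′ and 5′ ends of the transcript, whose ratio grows as RNA is degraded or copied incompletely, gave ratios of 6.23, 5.26, 8.82 and 6.71 in injected replicates 1 to 4, against 3.64, 3.95, 3.36 and 4.68 in control replicates 1 to 4. The groups did not overlap (two-sided exact permutation, p = 0.0286, which is the lowest value possible for 8 arrays, or 0.0572 adjusted over the 2 control transcripts). The actin ratio ran from 43.3 to 59.7 in injected and from 39.2 to 57.2 in control arrays (exact permutation p = 0.486). The part of these neuronal markers, of the microglia and leukocyte markers given above and of RNA quality in the lower Dusp1 and Dusp4 signal was not tested.

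**Figure D3:**
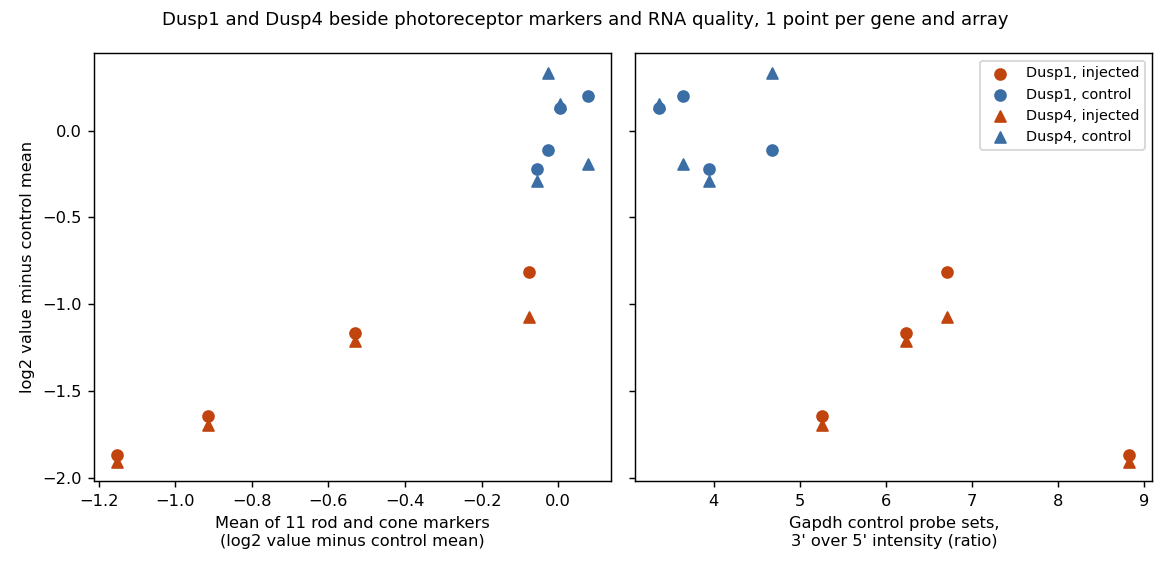
Dusp1 (circles) and Dusp4 (triangles) are plotted on the y axis as log2 value minus the control mean, 1 point per array, against the mean of 11 rod and cone markers on the same scale (left) and against the 3′ to 5′ ratio of the Gapdh control probe sets (right). The 4 injected arrays are ordered alike in both genes and in the markers, and all have a Gapdh ratio above 5, against at most 4.68 in control arrays.

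Retina was recognisable in both groups. The rod arrestin gene Sag had a log2 value of 16.02 ± 0.36 in injected and 16.32 ± 0.11 in control retina (SD, n = 4 each). Glul, the glutamine synthetase of Müller glia, had 16.1 ± 0.17 in injected and 16.09 ± 0.09 in control retina. Other genes of its list were less level. Of the 12 Müller glia and astrocyte markers, all tested, 8 had a negative and 4 a positive difference, with a median of -0.16. Their list mean was -0.28 to -0.055 on injected and -0.125 to 0.12 on control arrays around the control mean. Pigment epithelium and choroid markers varied widely, with list means from -1.90 to -0.08 on injected and from -1.08 to 1.77 on control arrays. Of the 10 tested, 9 had a negative difference, with a median of -0.91. Lens markers ran from 0.73 to 4.39 on injected and from -1.52 to 1.63 on control arrays. All 6 tested had a positive difference, with a median of 1.84 and 0 with groups apart. The part of these tissues in the signal of the 9 genes was not tested. Control replicate 2 was highest for the pigment epithelium and choroid list. Without it and injected replicate 3 together, an alternative chosen after the data were seen, the Spry4 difference was -0.64 and that of Dusp5 -1.22.

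The phosphatase genes were next set beside the rest of the MAP kinase system, in 7 lists of 171 genes in all, of which 153 had a probe set with that symbol alone and 129 passed the filter. These lists were written with earlier results of these data known. By limma with Benjamini-Hochberg adjustment over all 27022 probe sets, 0 of the 129 genes passed an adjusted p of 0.05, as did 0.00% of all probe sets. At an unadjusted p under 0.05, 11 were lower and 7 higher. All injected arrays lay below all controls for 8 of them (6.2%, against 2.65% of all genes tested) and above for 5 (3.88%, against 2.85%). Over all genes tested, 2.91% were lower and 3.77% higher at that unadjusted p. The median difference of the 129 was -0.01, equal to that of all genes to 2 decimals.

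Among other dual-specificity phosphatases, 9 of 14 genes were tested, 4 had negative and 5 positive differences, and the median was 0.00. The lowest was Dusp7, a cytoplasmic ERK phosphatase related to Dusp6, at -0.47 ± 0.19 (SE; limma adjusted p = 0.712). Its probe set can also bind related transcripts. Dusp3, a small phosphatase outside the MAP kinase phosphatase family proper, was at -0.36 ± 0.26 (adjusted p = 0.758) and Dusp26 at 0.23 ± 0.21 (adjusted p = 0.780). No group of this list was wholly above or below the other (0 of 9 in either direction).

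Other inhibitors of Ras and ERK signalling had a median of 0.05 over 18 tested genes, of which 8 were negative and 10 positive. The ubiquitin ligase gene Cblb differed by 0.59 ± 0.25 (SE; limma adjusted p = 0.712). Ptpn2, a tyrosine phosphatase of JAK and receptor signalling, differed by 0.33 ± 0.17 (adjusted p = 0.725), with all injected arrays above all controls. Rasa2, a GTPase-activating protein of Ras, differed by 0.46 ± 0.26 (adjusted p = 0.741).

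Upstream, growth factors and their receptors had a median of -0.09 over 29 tested genes, 16 negative and 13 positive. The neurotrophin receptor gene Ntrk3 read 1146, 1791, 2080 and 1445 in injected replicates 1 to 4, against 572.7, 1108, 1142 and 921.7 in control replicates 1 to 4. Its difference was 0.79 ± 0.28 (SE; limma adjusted p = 0.698) and its groups were apart. The FGF receptor genes had opposite signs, Fgfr4 at 1.17 ± 0.45 (adjusted p = 0.709) from a control mean just under the floor and Fgfr1 at -0.86 ± 0.35 (adjusted p = 0.709), both with overlap and both from probe sets that can bind related transcripts.

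The kinase genes differed little. In the list from Grb2 to ERK and its substrate kinases, 16 of 24 genes were tested, 7 negative and 9 positive, with a median of 0.05 and 0 groups apart. Grb2 differed by 0.30 ± 0.24 (SE; limma adjusted p = 0.768), the kinase gene Braf by -0.22 ± 0.21 (adjusted p = 0.782) and the MEK scaffold gene Lamtor3 by 0.21 ± 0.21 (adjusted p = 0.792). In the JNK and p38 list, 18 genes were tested, 7 negative and 11 positive, with a median of 0.13. The JNK scaffold gene Mapk8ip3 differed by -0.54 ± 0.28 (SE; adjusted p = 0.725). Map3k7, an activator of JNK and p38 in cytokine signalling, differed by 0.31 ± 0.17 (adjusted p = 0.732) with its groups apart. The p38 gene Mapk11 differed by 0.53 ± 0.31 (adjusted p = 0.741) from a control mean just under the floor, and by 0.23 without control replicate 3. Transcript levels do not report the phosphorylation of these kinases.

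Downstream, the list of ERK target and immediate early genes had a median of -0.15 over 24 tested genes, 15 negative and 9 positive, with 5 wholly lower and 1 wholly higher (2.65% and 2.85% of all genes tested were). Nr4a3, an orphan nuclear receptor gene, read 162.3, 515.1, 72.26 and 109.9 in injected replicates 1 to 4, against 1127, 1247, 2190 and 2061 in control replicates 1 to 4. The zinc finger factor gene Egr1 read 12850, 11730, 16410 and 18150 in injected, against 33180, 27160, 34610 and 34240 in control retina. Egr3 read 462.1, 926.1, 225.3 and 537.2 in injected, against 1170, 1757, 1536 and 2312 in control retina. The injected mean of Nr4a3 (7.49) was below the floor, so it passed the filter through its control values (10.65). All 3 had groups that did not overlap, and none passed over all probe sets (limma adjusted p = 0.301, 0.318 and 0.477). Their injected arrays were ordered only in part as those of Dusp1 and Dusp4. Injected replicate 2 was the highest for Nr4a3 and Egr3 and the lowest for Egr1. As in Dusp1 and Dusp4, replicate 3 was the lowest for Nr4a3 and Egr3, and replicate 4 the highest for Egr1.

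In the list of transcription factors and CREB targets, 15 genes were tested, with a median of -0.06, 8 negative and 7 positive. Per1, a clock gene with cyclic AMP response elements, read 697.4, 485.6, 557.4 and 1276 in injected replicates 1 to 4, against 1373, 2099, 1335 and 1429 in control replicates 1 to 4, a difference of -1.11 ± 0.31 (SE; limma adjusted p = 0.582). Ppargc1a, a coactivator gene of mitochondrial biogenesis, differed by -0.84 ± 0.23 (adjusted p = 0.570). Crtc3, a coactivator of CREB, differed by 0.72 ± 0.19 (adjusted p = 0.552). The groups of each were apart, Crtc3 with the injected arrays above.

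**Figure D4:**
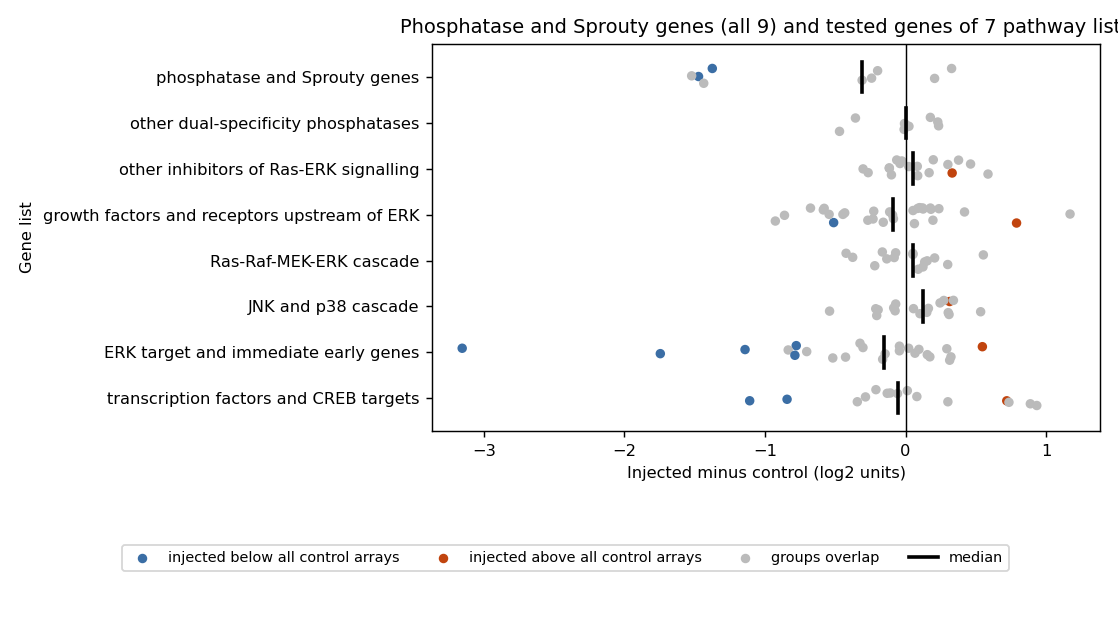
Each point is 1 gene, on the x axis as the difference injected minus control in log2 units, for the 9 phosphatase and Sprouty genes (Dusp5 included) and for the tested genes of the 7 pathway lists on the y axis; colour marks genes whose injected arrays lie wholly below or above all control arrays, and black bars are medians. The kinase lists lie within 0.6 of 0, and the points below -1 are in the phosphatase and Sprouty genes and in the 2 lists of target genes.

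The 8 genes read at a tested probe set were also compared within the groups. For the deviations of the 8 arrays from their group means, Pearson's r was 0.74 between Dusp1 and Dusp4, 0.82 between Dusp4 and Dusp6 and 0.53 between Dusp1 and Dusp6. It was -0.38 between Dusp4 and Dusp10 and -0.62 between Spry1 and Spry4. These values describe 8 arrays that share normalisation and RNA quality, and injected replicate 3 is extreme in several of the genes.

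Over all 8 arrays, where the group difference adds to the likeness, the genes most like Dusp1 were the cone opsin gene Opn1mw (r = 0.98), the netrin family gene Ntng1 (r = 0.973) and the cone opsin gene Opn1sw (r = 0.97). Opn1mw read 2028, 1173, 811.3 and 2391 in injected replicates 1 to 4, against 4082, 3499, 4183 and 3709 in control replicates 1 to 4. Its injected arrays were ordered as those of Dusp1. The genes most like Dusp4 were the retinol dehydrogenase gene Rdh11 (r = 0.98), 4930423M02Rik (r = 0.978) and the nicotinic receptor subunit gene Chrna6 (r = 0.974). These were picked from 12886 tested genes for their likeness.

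**Figure D5:**
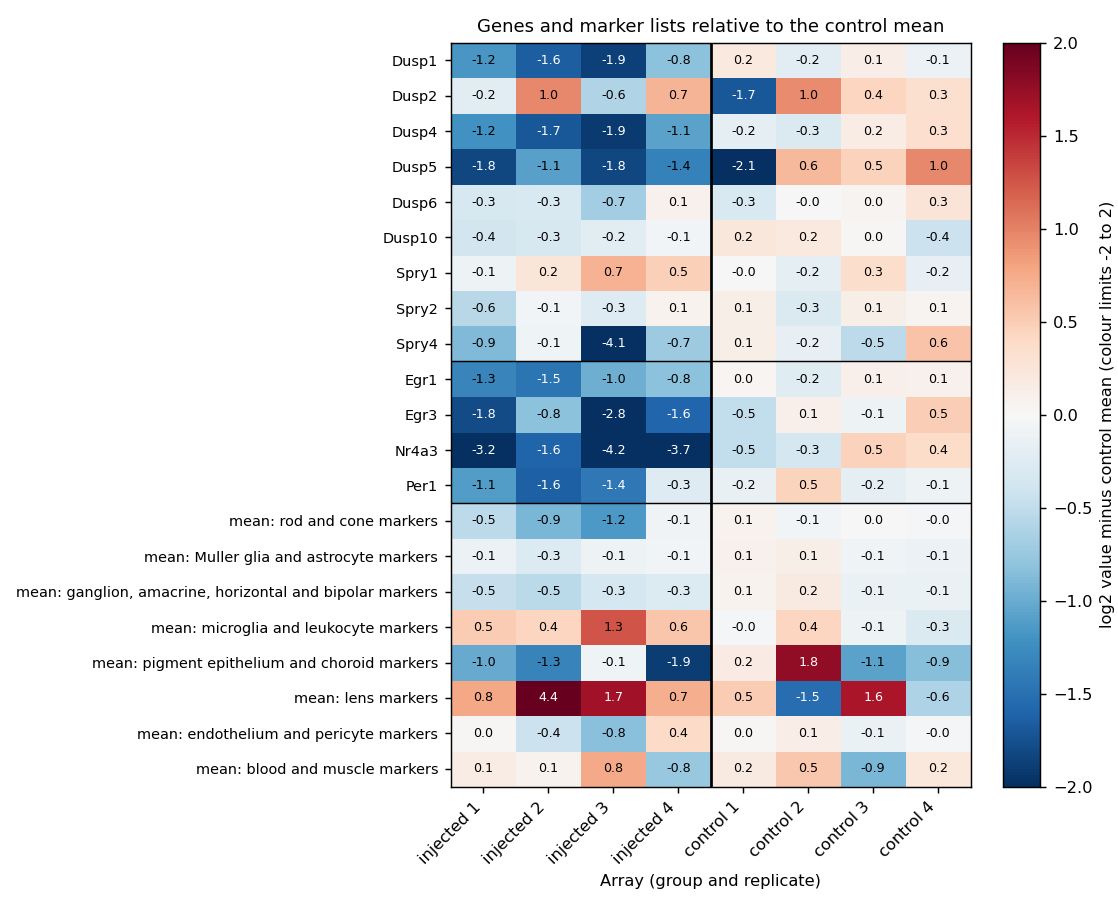
Colour and printed value give the log2 value minus the control mean on each array (columns, injected replicates left of control replicates; colours stop at -2 and 2) for the 9 genes, for 4 target genes, and for the mean of each marker list. Dusp1, Dusp4, Dusp5, Dusp10, Spry4 and the 4 target genes are below the control mean on all 4 injected arrays, Dusp10 and Spry4 only slightly on 1. The rod and cone marker mean runs from -1.15 to -0.08 on the injected arrays.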

How the data were processed

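The authors deposited 1 linear intensity per probe set and array, 45101 probe sets in all. The mean after leaving out 2% at each end was 2500 on every array, as global scaling by the authors gives; the software is not given in the sources used here. The 64 array control probe sets served only as quality measures. Array medians ran from 495 to 766 (ratio 1.55), so the deposited intensities were quantile-normalised in limma 3.58.1 (R 4.3.3, statmod 1.5.0). Log2 values, computed from the intensities deposited by the authors, are log2(intensity + 16), and the added 16 understates changes of dim genes. Probe sets at or above the 40th percentile of mean log2 value (27022) were fitted with lmFit and eBayes and adjusted by Benjamini-Hochberg at 0.05. Genes were read at their brightest probe set, with symbols from the platform annotation; RefSeq changed 0 of the members' symbols. Detection calls were not used here. None (0) of the 14 members' probe sets ends in x_at or s_at.

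The members and lists were chosen with earlier results of these data known. All 9 members, up to 3 genes per pathway list by smallest p, up to 2 markers per list by mean, and the 3 genes most correlated with each member could be named; the text uses some. Fos, Jun and the like are counted but not given values. The number of arrays limits precision. The fit was tested on simulated data, and the motif search on short made-up sequences. Samples of equal replicate number were not more alike than others (correlation of deviations -0.03 to 0.08 for equal numbers, -0.14 to 0.12 otherwise). So few pairs cannot settle whether samples were paired. Alternatives were 2 other scalings, pseudocounts of 1 and 64, no filter, a trended robust prior, array weights, a replicate block, the mean over probe sets and leaving out each array. Figures used matplotlib 3.10.9 in Python 3.11.15, and the permutation test scipy 1.17.1.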

Additional observations from a re-analysis of the deposited data

Results flagged for a closer look

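In each group the highest or lowest of the 4 arrays was compared with the rest at each of the 14 probe sets, 28 checks in all, and 4 had a gap above Dixon's 95% critical value for groups of 4; chance alone flags about 1 group in 20. Dusp5 had a log2 value of 6.97 in control replicate 1, with the next control at 9.50. The dim probe set of Dusp10 had 9.16 in injected replicate 3, with the next injected array at 6.74. The brighter probe set of Spry2 had 12.09 in control replicate 2, with the next control at 12.43. A Spry4 probe set below the filter had 4.8 in control replicate 3, with the next control at 6.82. Injected replicate 3 of the brightest Spry4 probe set, at 69.64 intensity units, was not among the 4.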

How the results depend on the processing

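With 1 array left out, the number of the 9 genes that were lower with groups that did not overlap was 2 to 3, with Spry4, Dusp5 or Dusp10 as the third; leaving out an array can hardly lower this count. Of the differences of the 9 genes under the alternatives, 33 were counted as fixed by construction. The other 129 include Dusp5 with array weights, also fixed (-1.52), as weights were applied only to tested probe sets. Of the 129, 125 kept their direction. The 4 that did not were Dusp2 without injected replicate 2 (-0.04) or control replicate 1 (-0.36), and Dusp10 (0.19) and Spry2 (0.06) as the mean over probe sets. The median difference of the 9 genes was -0.44 to -0.25 with 1 array left out and -0.55 with median centring, which shifts the median of all genes tested by -0.15. Over all probe sets, limma's calls at an adjusted p of 0.05 were 0 lower and 0 higher (899 and 990 at an unadjusted p under 0.05). Array weights gave 1 lower and 7 higher, and leaving out 1 array gave 0 to 5 lower and 0 to 29 higher, the most without injected replicate 4; the cause was not tested. With a replicate block the counts were 0 and 0; it cannot alter the differences in this balanced design (median -0.31). Pathway genes passing stayed at 0 in each alternative. Those wholly lower numbered 8, against 13 without control replicate 1 and 14 without control replicate 2 and injected replicate 3 together. Those wholly higher numbered 5, against 2 with median centring, 6 to 10 with 1 array left out and 13 without both. Fewer arrays overlap less, and the shares of all genes under these settings are not given here. Signal near the floor limits Dusp2, Dusp5 and Spry4.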

Other observations

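By deviations from the group means alone, which leave the group difference out, the tested genes most like Dusp1 over the 8 arrays were Nedd4 (Pearson's r = 0.992), Gapvd1 (r = 0.991) and Rnf122 (r = 0.984). Those most like Dusp4 were Cyp26a1 (r = 0.981), Hpf1 (r = 0.98) and Gorasp2 (r = 0.974), and those most like Dusp6 were Lrrc3b (r = 0.977), Evi2a (r = 0.966) and Atp6v1h (r = 0.966). No gene is on more than 1 of these lists of 3. None of them is a cone opsin gene, although 2 of the 3 genes most like Dusp1 with the group difference left in were. With 8 arrays and 12886 genes searched, values of this size describe these arrays only.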
